A study of Talinum fruticosum with 24 samples.

Results

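The comparison described here is the change in leaves treated with abscisic acid (ABA) between the harvests at 160 and 40 min, set against the same step in mock-treated leaves. Its members are the 2 libraries labelled ABA at 160 min and the 2 labelled ABA at 40 min, 4 of the 24 libraries of the series, chosen by title alone. The series record says that its sample labels, replicates included, were put right after the first deposit, and every group here rests on the later labels. The matching step in mock leaves rests on 4 further libraries, 2 at 160 min and 2 at 40 min. The plant is the waterleaf, listed as Talinum fruticosum and titled Talinum triangulare. ABA leaves carried 200 µM ABA in dilute methanol with Tween-20, and mock leaves carried the methanol and Tween-20 without the hormone. All leaves were mature and well watered, came from plants grown for 2 months, and were sprayed 4 h into a light period of 12 h. The harvests at 160 and 40 min therefore fell 6.67 and 4.67 h into the light, both before a second spray that followed 4 h after the first. The sprayed leaves of 1 plant were pooled into 1 library and no plant gave more than 1, so a step compares different plants and not the same leaf over time. Leaves at 40 min had already been sprayed, and no library of unsprayed leaves was used here.

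ABA is the hormone by which plants respond to drought. It binds soluble receptors that then hold back a family of protein phosphatases, which frees kinases to act on ion channels of the stomatal pores and on transcription factors that switch on drought genes. In the waterleaf, ABA or drought can bring on crassulacean acid metabolism, a form of photosynthesis that fixes carbon dioxide into malic acid during the night, when the pores open with little loss of water. Leaf transcripts also follow the circadian clock and the light, so a step over several daytime hours holds changes that have nothing to do with a hormone, and the mock step measures these together with any effect of the spraying itself.

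The 4 ABA libraries held 17990082 to 24447415 counts and the 4 mock libraries 16577222 to 24624505. Of 20617 features found in the series, 17561 passed the expression filter and were tested. The level of a feature is its CPM, the number of its counts scaled to a fixed library total after TMM correction, a scaling that evens out libraries in which a few abundant features take up different shares of the reads. Features are not scaled for length, so levels are compared within a feature only. The files do not pair identifiers with gene names and no annotation was used here, so the markers of leaf cells were not checked, no function is given for any feature, and at most 2 rising and 2 falling identifiers stand for each pattern. Less RNA per cell and fewer cells of one type cannot be told apart in whole leaves. A principal component analysis of the 8 libraries put harvest on the first component (54.5% of the variance), with scores of 57.6 and 68.5 in ABA leaves at 160 min against -48.8 and -45.7 at 40 min. Mock leaves scored 45.6 and 25 on it at 160 min, against -53.1 and -49.1 at 40 min. Mock leaves thus lay below ABA leaves on it at 160 min as well, with a wide gap between their libraries. The second component (20.6%) held the treatment at 160 min, with -33.4 and -38.3 in ABA leaves against 44.9 and 52.4 in mock leaves. At 40 min those scores were -10.7 and -15.6 in ABA leaves and 1.4 and -0.6 in mock leaves.

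Between 40 and 160 min a large share of the measured leaf transcriptome moved in ABA leaves, in near equal numbers up and down. In ABA leaves 2939 features rose and 2936 fell, together 5875 or 33.5% of those tested (edgeR quasi-likelihood test, adjusted p under 0.05), with 16.7% in each direction. The median log2 fold change was 0.98 among those that rose and -0.94 among those that fell, and 0.02 over all 17561 features. A change of 2-fold or more was found in 1432 of the rising features and in 1336 of the falling ones. Changes of 8-fold or more leaned upward, with 172 rising and 44 falling. Both libraries of 160 min lay on the same side of both libraries of 40 min in 5873 of the 5875, and in 12705 (72.3%) of all tested features. The same libraries gave the calls, so this separation is a description and no further test. Without ABA replicate 1 of 40 min the count was 3701, and without ABA replicate 2 of 160 min it was 3763. Scaling to library size alone gave 6924 rising and 1115 falling features, 86.1% rising in place of 50%, and moved the median of all features to 0.48, so directions are relative to the TMM scaling.

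Among features that averaged 100 counts or more per library and whose harvests did not overlap, the strongest rise was that of KMS99148. It had 164 and 194 CPM in ABA leaves at 160 min, against 0.127 and 0.117 CPM at 40 min, from 2 counts in each of the earlier libraries. In mock leaves it had 50.3 and 16.6 CPM at 160 min, against 0.376 and 0.27 CPM at 40 min. The feature was thus close to absent at 40 min under both treatments and well expressed at 160 min in all 4 libraries. Its log2 fold change was 10.46 ± 0.88 in ABA leaves (SE; edgeR adjusted p = 5.62e-07) and 6.69 ± 0.78 in mock leaves (SE; edgeR adjusted p = 2.57e-05). The difference between the steps, 3.77 ± 1.93, did not pass (edgeR adjusted p = 0.411). KMT03437 had 49.9 and 52.7 CPM in ABA leaves at 160 min, against 0.0636 and 0.117 CPM at 40 min. That is 2257 counts at 160 min and 3 at 40 min, a ratio of 558 (exact 95% counting interval 191 to 2710, for counting error only; edgeR adjusted p = 1.14e-08). Mock leaves stayed under 1 CPM for this feature, with 0.378 and 0.636 CPM at 160 min against 0.125 and 0.054 CPM at 40 min, and the 8 libraries separate by treatment at the later harvest only. The difference of its steps did not pass either (6.57 ± 2.02, SE; edgeR adjusted p = 0.0955), with 3 counts behind the mock level at 40 min as well. Compared directly at 160 min, KMT03437 was higher with ABA by a log2 difference of 6.64 ± 0.44 (SE; edgeR adjusted p = 2.83e-08). For KMS99148 that value was 2.42 ± 0.48 (SE; edgeR adjusted p = 0.00273). At 40 min neither feature passed (0.07 ± 1.48 and -1.35 ± 1.88, SE). The same ABA libraries of 160 min served to pick both features.

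The strongest falls by the same rule were seen in features that also fell in mock leaves. KMT03344 had 1.4 and 0.417 CPM in ABA leaves at 160 min, against 31.1 and 30 CPM at 40 min. Mock leaves had 4 and 2.38 CPM at 160 min, against 29.1 and 29.4 CPM at 40 min. The log2 fold changes were -5.00 ± 0.80 (SE; edgeR adjusted p = 0.000223) in ABA leaves and -3.20 ± 0.70 (SE; edgeR adjusted p = 0.00356) in mock leaves. The lower end in ABA leaves differed between the plants, with 35 counts in replicate 1 and 8 in replicate 2. KMT00662 had 1.28 and 1.1 CPM in ABA leaves at 160 min, against 28.6 and 23.8 CPM at 40 min, and 3.08 and 4.71 CPM in mock leaves at 160 min, against 24.9 and 34.8 CPM at 40 min. Its log2 fold change was -4.45 ± 0.47 in ABA leaves (SE; edgeR adjusted p = 4.02e-06) and -2.94 ± 0.42 in mock leaves (SE; edgeR adjusted p = 0.000105). For neither feature did the difference of the steps pass (edgeR adjusted p = 0.495 and 0.267). Compared directly at 160 min, KMT00662 was lower with ABA (log2 difference -1.7 ± 0.51, SE; edgeR adjusted p = 0.0339). KMT03344 did not pass there (-1.74 ± 0.87, SE; edgeR adjusted p = 0.23).

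A small number of the called features had no reads in ABA leaves at 40 or at 160 min. A count of 0 is the limit of detection and does not show absence. How many of all tested features had 0 counts at these harvests was not counted. Of the features that rose in ABA leaves, 30 had 0 counts in both ABA libraries of 40 min, and 13 of these also had 0 counts in both mock libraries of that harvest. Of the features that fell, 4 had 0 counts in both ABA libraries of 160 min, and 0 of these were also without counts in both mock libraries of 160 min.

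The balance of falling and rising features differed with abundance. Features were ranked by their mean CPM over the 8 libraries, a ranking by reads that takes no account of length. Among the 100 most abundant, 43 fell and 1 rose in ABA leaves, with a median log2 fold change of -0.61. Among the next 900, 430 fell and 101 rose. Beyond rank 5000 in this order the balance turned, with 2130 of 12561 rising and 1333 falling. The 100 most abundant features took 39.3% and 37.1% of the counts in ABA leaves at 160 min, against 47.6% and 46.8% at 40 min. In mock leaves they took 38.4% and 44.5% at 160 min, against 52.4% and 47.6% at 40 min, and 47 of them fell and 2 rose. None of the 100 passed the test for a difference between the steps, in either direction, and their median difference was -0.06. With library size alone 1821 of the 2936 falling features no longer passed, none turned to a called rise, and 2700 kept a negative sign.

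**Figure D1:**
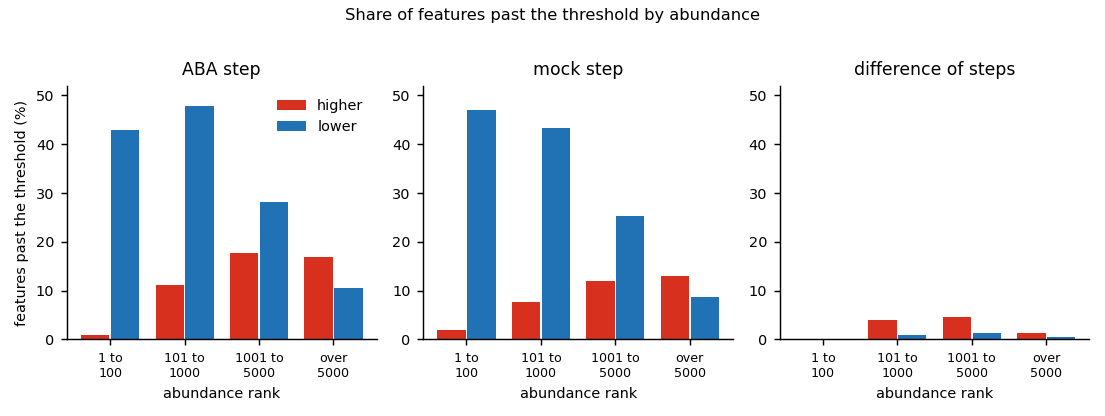
Share of features (%) past the threshold as higher (red) or lower (blue) at 160 than at 40 min, by abundance rank, in ABA leaves (left), in mock leaves (middle) and for the difference between both steps (right). Among the 900 features that follow the 100 most abundant, 47.8% fell in ABA leaves and 43.3% in mock leaves. By the difference 4% of them were higher and 0.9% lower, against 2.28% and 0.769% of all tested features.

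Much of the change in ABA leaves was also seen in mock leaves over the same interval. In mock leaves 2178 features rose and 2554 fell, 4732 in all or 26.9% of those tested. Without mock replicate 1 of 160 min this count was 2508, without mock replicate 1 of 40 min 2993 and without mock replicate 2 of 40 min 3089. Of the features that rose in ABA leaves, 1390 also rose in mock leaves, which is 47.3% of the ABA list and 63.8% of the mock list, where 12.4% of all tested features rose in mock leaves. Of those that fell, 1641 also fell in mock leaves, which is 55.9% of the ABA list and 64.3% of the mock list, against 14.5% of all features. The steps share no library, but they do share the estimate of each feature's spread. Across the 17561 features the steps correlated at r = 0.596 (Spearman 0.646), a description over features that are not independent and that share library composition. Read in the libraries that did not choose them, the 2178 features that rose in mock leaves had a median log2 fold change of 0.74 in ABA leaves, and the 2554 that fell had -0.76. The 2939 features that rose in ABA leaves had a median of 0.57 in mock leaves, and the 2936 that fell had -0.64.

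The shared part of the step comprised 2960 features that passed in both treatments in the same direction with no call for the difference, 1347 rising and 1613 falling. A missed call does not show that the steps are equal, but the median difference was 0.02 for the rising and -0.06 for the falling features. KMT13174 shows how close the steps could be. It had 7.2 and 7.88 CPM in ABA leaves at 160 min, against 99.3 and 95 CPM at 40 min, and 5.99 and 9.22 CPM in mock leaves at 160 min, against 95.4 and 97.6 CPM at 40 min. The ABA and mock libraries overlapped at both harvests. Its log2 fold changes were -3.69 ± 0.25 in ABA leaves (SE; edgeR adjusted p = 2.34e-08) and -3.66 ± 0.25 in mock leaves (SE; edgeR adjusted p = 1.38e-07), a difference of -0.03 ± 0.33. KMS98949 had 17.4 and 10.4 CPM in ABA leaves at 160 min, against 261 and 268 CPM at 40 min. The mock levels were 10.7 and 17.6 CPM at 160 min, against 297 and 261 CPM at 40 min. Here too the treatments overlapped at 160 min, and the steps of -4.25 ± 0.42 in ABA and -4.30 ± 0.43 in mock leaves differed by 0.06 ± 0.54. KMT14722, the second named riser after KMS99148, had 6.56 and 7.2 CPM in ABA leaves at 160 min, against 0.191 and 0.293 CPM at 40 min. In mock leaves it had 23.5 and 11.2 CPM at 160 min, against 0.438 and 0.648 CPM at 40 min. Its steps were 4.78 ± 0.59 in ABA leaves (SE; edgeR adjusted p = 1.23e-05) and 4.96 ± 0.49 in mock leaves (SE; edgeR adjusted p = 3.02e-06), although its level was lower in both ABA libraries than in both mock libraries at each of these harvests. Without mock replicate 1 of 160 min the shared group held 1703 features. With library size alone it held 5761, 5335 rising and 426 falling, of which 1770 belonged to the group as given here.

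**Figure D2:**
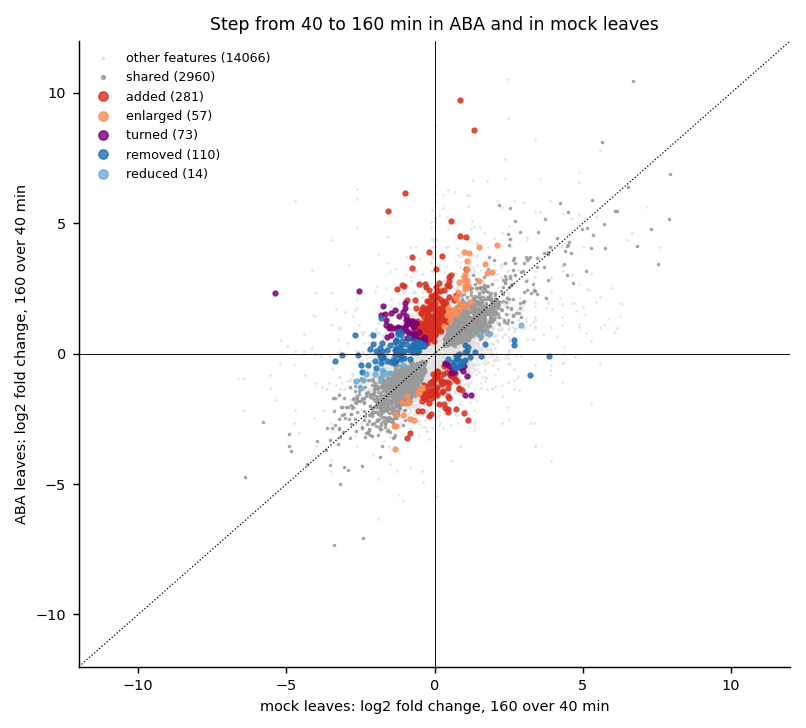
Log2 fold change of each tested feature between 160 and 40 min in ABA leaves (vertical axis) against mock leaves (horizontal axis). Dark grey points along the dotted line of equal steps are the 2960 shared features, and coloured points are the 535 whose steps differed, with 205 added rising features above the centre and 83 removed falling features to the left of it.

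A far smaller set passed the test of the difference between the steps. This test, of the ABA step minus the mock step, passed for 535 features or 3.05% of those tested. It carries the error of both steps and so misses differences more easily, and its count does not show that the other steps were equal. The difference was positive in 400 (2.28%) and negative in 135 (0.769%). At an unadjusted p under 0.05 there were 2504 features. The same contrast is the growth of the ABA effect between 40 and 160 min, so a feature already raised by ABA at 40 min enters only with what it gained afterwards. Compared directly at 160 min, 1501 of the 17561 features were higher with ABA than in mock leaves and 889 lower. Of the 22 features already higher with ABA at 40 min (0.125% of those tested), 12 rose and 2 fell over the ABA step, 7 fell over the mock step, and 7 had a positive difference. These values share the libraries of 40 min and are given as a description. The count of 535 depended on single libraries. It was 170 without ABA replicate 1 of 40 min, 236 without ABA replicate 2 of 40 min, 304 and 223 without ABA replicates 1 and 2 of 160 min, 269 and 322 without mock replicates 1 and 2 of 40 min, and 219 without mock replicate 2 of 160 min. With library size alone 174 were positive and 126 negative, 58.0% positive in place of 74.8%, with a median difference of -0.10 over all features.

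Among the features whose steps differed, changes added by ABA made up the largest class, with 281 features that passed in ABA leaves and in the difference but not in mock leaves, 205 rising and 76 falling. The median log2 fold change of the 205 was 1.26 in ABA leaves and -0.08 in mock leaves. That of the 76 was -1.37 in ABA leaves and 0.06 in mock leaves. These values chose the class and carry no test. KMT03434 had the largest difference among those with a mean of at least 100 counts, with 655 and 623 CPM in ABA leaves at 160 min, against 1.72 and 1.58 CPM at 40 min. Mock leaves had 4.21 and 5.4 CPM at 160 min, against 2.5 and 1.35 CPM at 40 min. The step came to 8.59 ± 0.53 in ABA leaves (SE; edgeR adjusted p = 2.28e-08) and 1.34 ± 0.50 in mock leaves (SE; edgeR adjusted p = 0.0584), and the difference to 7.26 ± 0.74 (SE; edgeR adjusted p = 8.73e-05). Levels at 40 min overlapped between treatments, and by 80 min ABA leaves stood at 19.7 and 37.5 CPM against 2.15 and 0.928 CPM in mock leaves. KMT10188 had 26.4 and 26.6 CPM in ABA leaves at 160 min, against 0.445 and 0.293 CPM at 40 min. The mock levels were 0.648 and 0.371 CPM at 160 min, against 1 and 1.03 CPM at 40 min. Levels at 40 min rest on 7 and 5 counts in ABA leaves and 16 and 19 in mock leaves. The lower ABA level there did not pass (log2 difference -1.45 ± 1.02, SE). At 160 min ABA leaves were higher by 5.69 ± 0.68 (SE; edgeR adjusted p = 3.43e-05). The difference of the steps of KMT10188 was 7.14 ± 1.24 (SE; edgeR adjusted p = 0.00466).

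Among the falling features added by ABA, KMT19837 had 18.5 and 15.8 CPM in ABA leaves at 160 min, against 83.7 and 79.2 CPM at 40 min. In mock leaves it had 131 and 100 CPM at 160 min, against 75.9 and 92.7 CPM at 40 min. Levels at 40 min overlapped, and at 160 min the treatments were apart by more than the spread within either. The steps were -2.24 ± 0.34 in ABA leaves (SE; edgeR adjusted p = 0.000114) and 0.46 ± 0.32 in mock leaves (SE; edgeR adjusted p = 0.315), with a difference of -2.70 ± 0.46 (SE; edgeR adjusted p = 0.00402). KMT18510 had 5.6 and 6.42 CPM in ABA leaves at 160 min, against 26.6 and 24.2 CPM at 40 min, and 27.6 and 55 CPM in mock leaves at 160 min, against 32.1 and 33.2 CPM at 40 min. Its mock libraries of 160 min lay far apart, though both above all 4 ABA libraries, and mock leaves were already slightly above ABA leaves at 40 min. The difference of -2.42 ± 0.41 (SE; edgeR adjusted p = 0.00319) was -1.84 without mock replicate 2 of 160 min and -2.83 without mock replicate 1. The class of 281 held 85 and 130 features without ABA replicates 1 and 2 of 40 min, 164 and 113 without ABA replicates 1 and 2 of 160 min, 158 without mock replicate 1 of 40 min and 122 without mock replicate 2 of 160 min. It held 132 with library size alone, 85 rising and 47 falling, and only 76 of them were among the 281.

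In 57 further features the step passed in both treatments in the same direction and was larger with ABA, 40 rising and 17 falling. The 40 had a median of 2.25 in ABA leaves and 0.93 in mock leaves. The 17 had -1.86 in ABA leaves and -0.88 in mock leaves. Leaving out any 1 of the 8 libraries brought this class to between 18 (without mock replicate 1 or 2 of 40 min) and 30 (without ABA replicate 1 of 160 min). It held 21 and 28 features without ABA replicates 1 and 2 of 40 min, 25 without ABA replicate 2 of 160 min, and 26 and 19 without mock replicates 1 and 2 of 160 min.

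**Figure D3:**
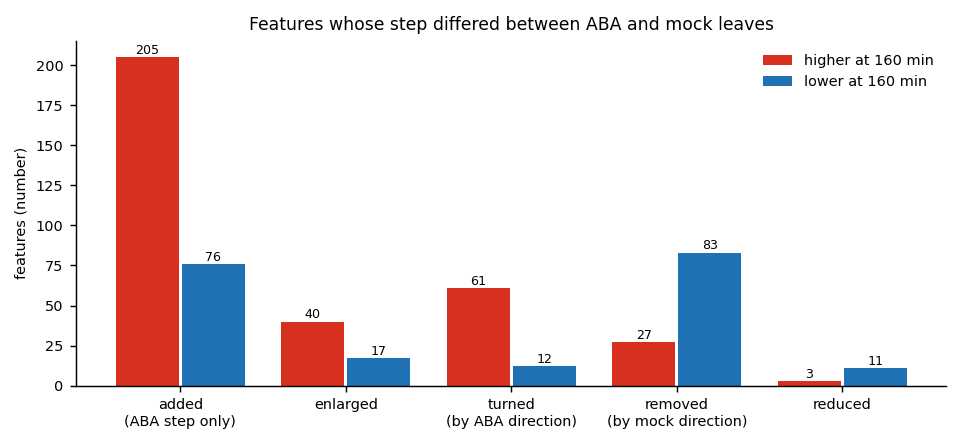
Number of features in each class of those whose step differed between ABA and mock leaves, split by the direction of the change at 160 against 40 min (for the removed class, the direction in mock leaves). Added features were mostly rising, 205 against 76, and removed ones mostly falling, 83 against 27.

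ABA leaves and mock leaves went opposite ways for 73 features, 61 of them rising with ABA while they fell in mock leaves and 12 the reverse. With library size alone the class held 41 features, 15 rising and 26 falling with ABA, and only 14 of them were among the 73. The 61 had a median log2 fold change of 0.97 in ABA leaves and -0.91 in mock leaves. KMT05175 had 90.1 and 96.4 CPM in ABA leaves at 160 min, against 25.8 and 27 CPM at 40 min. Mock leaves had 1.08 and 1.32 CPM at 160 min, against 3.63 and 4.43 CPM at 40 min. It was thus already higher in both ABA libraries at 40 min, and the distance between the treatments widened from both sides. The steps were 1.82 ± 0.20 in ABA leaves (SE; edgeR adjusted p = 2.29e-06) and -1.74 ± 0.29 in mock leaves (SE; edgeR adjusted p = 0.000322), and the difference was 3.57 ± 0.35 (SE; edgeR adjusted p = 3.81e-05). KMT00676 began level, with 20.3 and 23 CPM in ABA leaves at 40 min inside the mock range of 19.3 to 26.3 CPM. At 160 min it had 60.3 and 68.6 CPM in ABA leaves against 8.91 and 7.36 CPM in mock leaves, a difference of 3.06 ± 0.45 (SE; edgeR adjusted p = 0.00118).

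Of the 12 that fell with ABA and rose in mock leaves, KMT07595 had 6.96 and 4.85 CPM in ABA leaves at 160 min, against 18.4 and 17.4 CPM at 40 min. The mock levels were 28.3 and 48.5 CPM at 160 min, against 13.5 and 24.6 CPM at 40 min, with wide gaps between the plants at both harvests. The difference was -2.60 ± 0.52 (SE; edgeR adjusted p = 0.0123), and the call was lost without ABA replicate 1 of 40 min (adjusted p = 0.0546), ABA replicate 2 of 160 min (0.0699), mock replicate 1 of 40 min (0.0585) or mock replicate 2 of 160 min (0.0674), within a range of 7.94e-05 to 0.0699 over all alternatives. KMT05998 had 12 and 8.55 CPM in ABA leaves at 160 min, against 19.5 and 17.9 CPM at 40 min, and 41.6 and 46.1 CPM in mock leaves at 160 min, against 23.2 and 18 CPM at 40 min. Within each treatment the harvests did not overlap, and its difference was -1.95 ± 0.31 (SE; edgeR adjusted p = 0.00153). The class of 73 held 27 and 36 features without ABA replicates 1 and 2 of 40 min, 41 and 35 without ABA replicates 1 and 2 of 160 min, 37 and 41 without mock replicates 1 and 2 of 40 min and 36 without mock replicate 2 of 160 min.

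Changes present in mock leaves and not called in ABA leaves, with a call for the difference, numbered 110, of which 83 fell and 27 rose in mock leaves. With library size alone the class held 57 features, 16 falling and 41 rising in mock leaves, and only 28 of them were among the 110. The 83 had a median log2 fold change of 0.18 in ABA leaves and -1.19 in mock leaves. The 27 had -0.18 in ABA leaves and 0.99 in mock leaves. KMT08825 had 435 and 380 CPM in ABA leaves at 160 min, against 490 and 498 CPM at 40 min. In mock leaves it had 55.8 and 39.3 CPM at 160 min, against 505 and 468 CPM at 40 min. All 4 libraries of 40 min lay close together, and at 160 min both ABA libraries were near that level and both mock libraries far under it. The steps were -0.28 ± 0.25 in ABA leaves (SE; edgeR adjusted p = 0.411) and -3.36 ± 0.27 in mock leaves (SE; edgeR adjusted p = 4.93e-07), with a difference of 3.08 ± 0.36 (SE; edgeR adjusted p = 0.000134). KMT19130 had 38.4 and 68 CPM in ABA leaves at 160 min, against 61.3 and 49.5 CPM at 40 min, and 8.91 and 8.21 CPM in mock leaves at 160 min, against 32 and 70.2 CPM at 40 min. Its difference of 2.52 ± 0.50 (SE; edgeR adjusted p = 0.0116) is a weak call. It was lost without ABA replicate 2 of 40 min (adjusted p = 0.0614), ABA replicate 2 of 160 min (0.0626), mock replicate 2 of 40 min (0.0515) or mock replicate 2 of 160 min (0.0669), and in the fit to the 8 libraries of both harvests alone (0.0983), within a range of 5.79e-05 to 0.0983 over all alternatives.

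Among those that rose in mock leaves and not in ABA leaves, KMT00187 had 11.8 and 22.3 CPM in ABA leaves at 160 min, against 14.8 and 12.3 CPM at 40 min. Mock leaves had 76.8 and 111 CPM at 160 min, against 17 and 12.7 CPM at 40 min. Only the mock libraries of 160 min stood apart. The difference was -2.34 ± 0.37 (SE; edgeR adjusted p = 0.00162), and adjusted p was 0.0561 in the fit to the 8 libraries with a replicate block, within a range of 9.68e-07 to 0.0561. KMS96142 had 30.5 and 35.1 CPM in ABA leaves at 160 min, against 33.8 and 36.5 CPM at 40 min, and 91.7 and 93.7 CPM in mock leaves at 160 min, against 27.9 and 35 CPM at 40 min. Its difference was -1.66 ± 0.26 (SE; edgeR adjusted p = 0.0015). A further 14 features passed in both treatments with a smaller step in ABA leaves, 11 falling and 3 rising. The 110 features numbered 34 and 39 without ABA replicates 1 and 2 of 40 min, 63 and 46 without ABA replicates 1 and 2 of 160 min, 47 and 64 without mock replicates 1 and 2 of 40 min and 34 without mock replicate 2 of 160 min. The 14 numbered 3 and 3, 6 and 4, 9 and 8, and 8 in the same order.

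**Figure D4:**
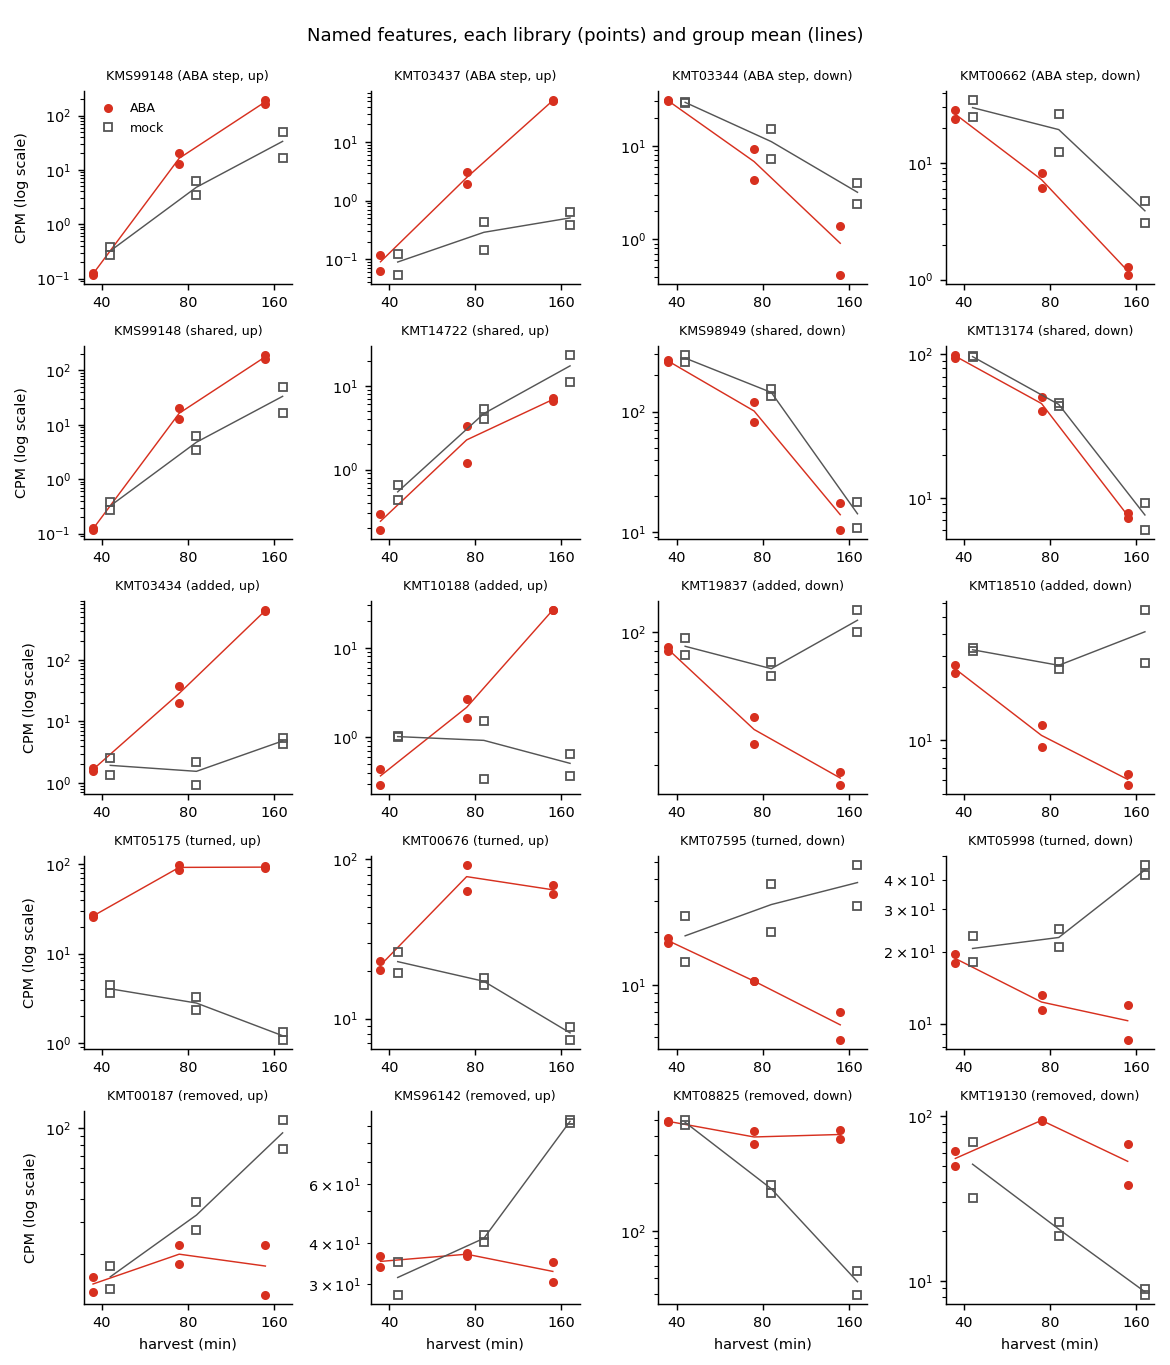
CPM (log scale) of the named features at 40, 80 and 160 min, with ABA libraries as filled red circles, mock libraries as open grey squares and lines through the group means (n = 2 each). Rows show the strongest ABA steps, shared, added, turned and removed features, the first 2 columns those that rose and the last 2 those that fell. KMT08825, in the lowest row, stays between 357 and 498 CPM in ABA leaves while the mock libraries drop to 55.8 and 39.3 CPM.

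A large part of the ABA list belongs to none of these classes. For 2490 features that passed in ABA leaves only, 1283 rising and 1207 falling, the difference did not pass, and likewise for 1518 that passed in mock leaves only. The 1283 had a median log2 fold change of 0.89 in ABA leaves and 0.31 in mock leaves, and the 1207 had -0.81 in ABA leaves and -0.34 in mock leaves. By these tests the features cannot be counted as added or removed by ABA. A missed call does not show that ABA left them unchanged. Compared directly at 160 min, 414 of the 1283 (32.3%) were higher with ABA and 0 lower. Of the 1207, 279 (23.1%) were lower and 1 higher. Of all 17561 tested features 1501 were higher and 889 lower. The ABA libraries of 160 min also chose these features, so the counts are a description.

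The interval can be divided at 80 min, where both treatments have 2 more libraries each. From 40 to 80 min 757 features rose (4.31% of those tested) and 432 fell (2.46%) in ABA leaves, 6.77% in all. From 80 to 160 min 1081 rose (6.16%) and 1278 fell (7.28%), 13.4% in all. These intervals share libraries with each other and with the whole step, so their values are given side by side. The later interval is also the longer, so counts and medians are not rates. The 2939 features that rose over the whole ABA step had medians of 0.44 from 40 to 80 min and 0.50 from 80 to 160 min in ABA leaves, against 0.24 and 0.33 in mock leaves. The 2936 that fell had -0.38 and -0.54 in ABA leaves, against -0.28 and -0.40 in mock leaves. The 205 rising features added by ABA had the larger median early, with 0.79 up to 80 min and 0.59 after it in ABA leaves, against -0.02 and -0.04 in mock leaves. For the 83 whose fall was removed, the mock change was larger over the longer, later interval. Their medians were 0.06 and 0.12 in ABA leaves against -0.32 and -0.74 in mock leaves. The count from 40 to 80 min was 325 and 489 without ABA replicates 1 and 2 of 40 min and 589 without ABA replicate 1 of 80 min. The count from 80 to 160 min was 1004 and 926 without ABA replicates 1 and 2 of 160 min, 1285 and 1401 without ABA replicates 1 and 2 of 80 min, and 5679 with library size alone (5281 rising, 398 falling).

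Libraries that entered neither step gave a further reading of the classes. They did enter the estimate of each feature's spread, which all tests share, so the reading is not fully independent. At 80 min, in the comparison of ABA with mock leaves, 111 of the 205 rising added features were higher with ABA (54.1%), where 4.08% of all tested features were. Of the 76 falling ones 15 were lower (19.7%), against 1.84% of all. Of the 61 that turned upward 33 were higher (54.1%), and of the 83 whose fall was removed 28 were higher (33.7%). At 320 min, after the second spray, 171 of the 205 were higher (83.4%) where 13.6% of all features were, and 60 of the 76 were lower (78.9%) where 12.2% were. The 61 gave 54 higher (88.5%) and the 83 gave 53 (63.9%). Among the 1347 shared rising features 456 (33.9%) were higher with ABA at 320 min, and among the 1613 shared falling ones 652 (40.4%) were lower. Without ABA replicate 1 of 80 min 9 of the 76 were lower at 80 min, and without mock replicate 2 of 80 min 14 of the 83 were higher. The count over all features at 80 min, 1039 or 5.92%, was 1709 and 495 without mock replicates 1 and 2 of 80 min and 570 without ABA replicate 2. At 320 min the count of 4534 (25.8%) was 2252 without ABA replicate 2, and 2457 and 2825 without mock replicates 1 and 2.

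The classes also differed in what followed. Levels below are medians over the features of log2 CPM relative to the mean of the 4 libraries of 40 min, 1 value per library. The 205 rising added features had values in ABA leaves of 0.73 and 0.78 at 80 min, then 1.23 and 1.32 at 160 min, then 0.62 and 0.86 at 320 min. In mock leaves they stood at -0.02 and -0.02, -0.03 and -0.17, and -0.40 and -0.36. Levels in ABA leaves were thus lower at 320 than at 160 min, and mock leaves were lower too. The median log2 difference of ABA from mock leaves was 1.37 at 160 min and 1.15 at 320 min. The values of 160 min chose the class, which favours high ones there, so a loss of the rise was not tested. The 83 features whose fall was removed stood at 0.17 and 0.25 in ABA leaves at 160 min, then at -0.87 and -0.75 at 320 min. In mock leaves they stood at -1.06 and -1.21 at 160 min and -1.36 and -1.37 at 320 min, so ABA leaves were lower at 320 min than at 40 min as well. The 27 whose rise was removed had -0.12 and -0.04 at 160 min in ABA leaves, then 0.79 and 0.77 at 320 min, against 0.87 and 1.00 in mock leaves at 160 min and 0.88 and 1.03 at 320 min. KMT08825 had 75.1 and 124 CPM in ABA leaves at 320 min against 14.4 and 12 CPM in mock leaves. At 640 min 11.2% of all tested features were higher with ABA and 13.6% lower, and at 1280 min 23.3% were higher and 22.2% lower, against which the later course of the classes is read.

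**Figure D5:**
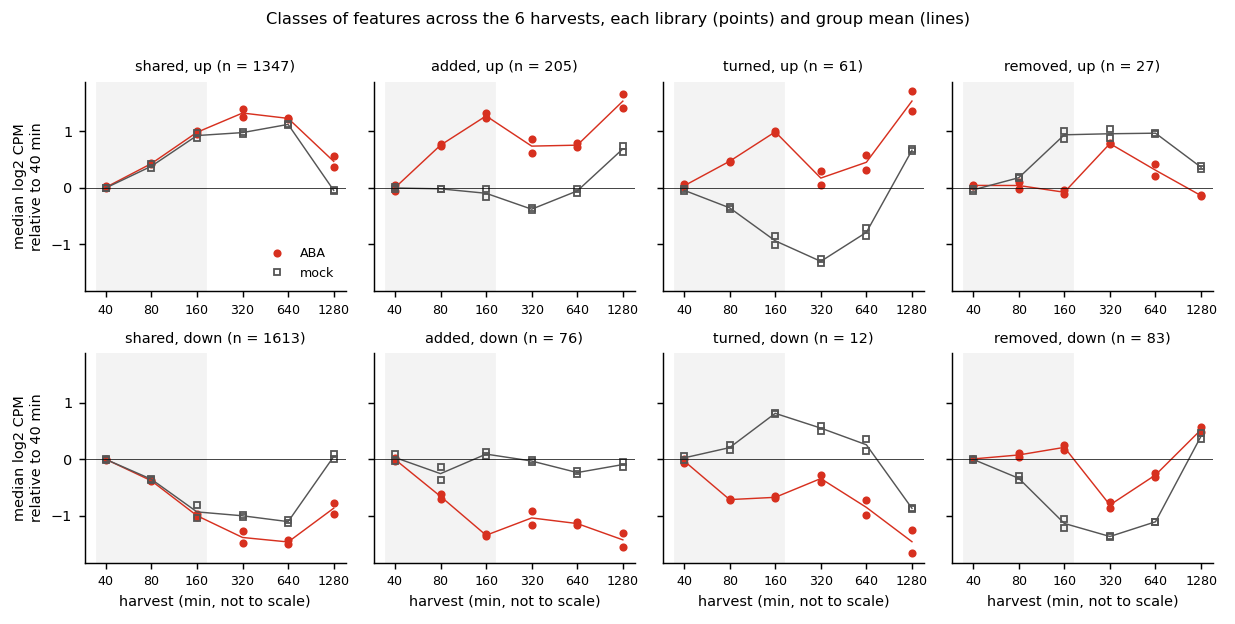
Median log2 CPM, relative to the mean of the 4 libraries of 40 min, of the shared, added, turned and removed features at each harvest (min, not to scale), with ABA libraries as red circles, mock libraries as grey squares and lines through the group means. Shading spans 40 to 160 min, and the harvests at both of its ends chose the classes. The 83 features whose fall was removed lie above 0 in ABA leaves at 80 and 160 min, and at -0.87 and -0.75 at 320 min.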

How the data were processed

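The values deposited by the authors are raw read counts, whole numbers for each feature that had reads in a library. A feature missing from a library's list was set to 0. Per the labels' protocols, stranded libraries were made from polyadenylated RNA and sequenced as single reads on an Illumina HiSeq instrument. Tools named in the submitters' processing notes are CASAVA, Trimmomatic and DESeq2. The aligner, the reference and whether counting used strand were not given in the sources used here, and near-identical or overlapping features may share reads. Lanes held 12 samples, with no record here of their sharing, so lanes could not be examined as a batch.

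Counts of all 24 libraries (16577222 to 26846579 per library) were fitted in R 4.3.3 with edgeR 4.0.16: expression filter by group (minimum count 10), TMM factors (0.66 to 1.70), 1 mean for each of 12 groups, robust quasi-likelihood F-tests (two-sided), Benjamini-Hochberg adjustment over 17561 features and a threshold of 0.05. The common biological coefficient of variation was 15.7%. SEs were derived from each log2 fold change and its F statistic and restate the test. Each library came from its own plant, and replicate libraries of these groups were further apart than counting noise alone allows (chi-square 4.89 to 76.7 times its degrees of freedom).

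Classes combine 3 tests, the ABA step, the mock step and their difference. Named are the 2 strongest risers and the 2 strongest fallers of the ABA step (by its log2 fold change), the added and turned classes (by the difference), the removed class (by the mock step) and the shared class (by the smaller of both steps). Each needed 100 counts on average in the 8 libraries of 40 and 160 min and no overlap between harvests in the steps that define it. Groups and classes were chosen with earlier results of these data known. The 7 gene lists and the leaf cell markers (127 symbols) matched 0 identifiers and gave no result. Alternatives were another normalisation, other filters, DESeq2 1.42.0, fits to fewer libraries, a replicate block, a threshold of 0.01 and leaving out single libraries.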

Additional observations from a re-analysis of the deposited data

Results flagged for a closer look

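The step from 40 to 160 min differed between ABA and mock leaves for 535 features, by the test of the difference itself (edgeR quasi-likelihood, adjusted p under 0.05). The named features among them are listed for a closer look because their steps in the 2 treatments differed by that test. The log2 difference, ABA step minus mock step, was 7.26 for KMT03434, 7.14 for KMT10188, -2.70 for KMT19837 and -2.42 for KMT18510, which were added by ABA. It was 3.57 for KMT05175, 3.06 for KMT00676, -2.60 for KMT07595 and -1.95 for KMT05998, which went opposite ways in ABA and mock leaves. It was 3.08 for KMT08825, 2.52 for KMT19130, -2.34 for KMT00187 and -1.66 for KMS96142, which changed in mock leaves and passed no test in ABA leaves.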

How the results depend on the processing

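Direction held for every named feature under each alternative run. Counts of the ABA step, mock step and difference stayed within 1.5 times under DESeq2 size factors, no filter, a minimum count of 50, no robust estimation, the replicate block and the fit to 12 libraries. With the replicate block in all 24 libraries they were 5777, 4611 and 489, and in the 8 libraries of 40 and 160 min 6121, 4912 and 718. Replicate numbers were not treated as pairs, because each library came from its own plant. Deviations of replicate 1 from the group mean correlated between harvests at 0.01 in ABA and -0.06 in mock leaves. Between treatments they correlated at -0.10 at 160 min and -0.01 at 40 min. Whether libraries of 1 replicate number shared a batch was not tested. Against the same libraries without the block, the block changed no named call except that of KMT00187 in the 8 libraries (edgeR adjusted p = 0.0561 with the block, 0.0402 without). KMT19130 passed in neither fit to the 8 libraries (0.097 with the block, 0.0983 without). Library size alone gave 8502 for the mock step, 300 for the difference, 5679 from 80 to 160 min, 678 for ABA against mock at 80 min, and 5761 shared, 132 added, 41 turned, 57 removed and 7 reduced features. A threshold of 0.01 gave 3673 (ABA step), 2609 (mock step), 176 (difference), 502 and 946 (40 to 80 and 80 to 160 min), 449 and 2649 (80 and 320 min), and 1595 shared, 111 added, 13 enlarged, 20 turned, 29 removed and 2 reduced features. The difference had 821 features in the fit to 8 libraries and 892 with DESeq2, which gave 442 added, 132 enlarged, 204 removed and 24 reduced. Leaving out 1 library gave 3701 to 5842 (ABA step), 2508 to 4529 (mock step), 170 to 548 (difference), 325 to 1341 (40 to 80 min) and 926 to 2577 (80 to 160 min), 495 to 1709 (80 min), 2252 to 4566 (320 min), 1703 to 2675 shared, 85 to 345 added, 18 to 30 enlarged, 27 to 59 turned, 34 to 101 removed and 3 to 13 reduced. The alternatives without a library of 80 min (for ABA against mock) or of 320 min were chosen after seeing the data. A lone library left in a group was assumed to vary like the other groups. The cause of these changes was not tested.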

Other observations

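The later course of the features whose step differed was read at 640 and 1280 min, from libraries that entered neither step. These libraries also entered the shared estimate of each feature's spread. Of the 205 rising features added by ABA, 132 were higher with ABA at 640 min (64.4%) and 149 at 1280 min (72.7%), where 11.2% and 23.3% of all tested features were. Of the 76 falling ones, 57 were lower at 640 min (75%) and 61 at 1280 min (80.3%), against 13.6% and 22.2% of all. The 205 stood at 1.41 and 1.66 in ABA leaves at 1280 min and at 0.74 and 0.64 in mock leaves, as medians of log2 CPM relative to 40 min. Of the 83 features whose fall was removed, 29 were higher (34.9%) and 20 lower (24.1%) with ABA at 1280 min, and their medians were 0.48 and 0.57 in ABA leaves against 0.46 and 0.36 in mock leaves. KMT08825 then had 5030 and 6790 CPM in ABA leaves and 5190 and 3800 CPM in mock leaves.

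The shared falling features lay lower in ABA leaves at each later harvest. Of the 1613, 652 (40.4%) were lower with ABA at 320 min and 696 (43.1%) at 640 min, where 12.2% and 13.6% of all features were. At 1280 min they had medians of -0.77 and -0.96 in ABA leaves and 0.09 and 0.01 in mock leaves, and 1078 of them (66.8%) were lower with ABA, where 22.2% of all features were. Of the 1347 that rose in both, 456 (33.9%) were higher with ABA at 320 min, 238 (17.7%) at 640 min and 630 (46.8%) at 1280 min, against 13.6%, 11.2% and 23.3% of all.

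Some features passed in opposite directions before and after 80 min. In ABA leaves 58 were higher at 80 than at 40 min and lower at 160 than at 80 min, both by edgeR at the same threshold, and 45 of these passed no test over the whole step. The reverse course was seen in 20 features, 19 of them with no call over the whole step. Of all tested features 4.31% rose from 40 to 80 min and 7.28% fell from 80 to 160 min. In the reverse order 2.46% fell and 6.16% rose. Whether the counts exceed what these shares alone would give was not tested, so they are a description of calls and mark no distinct group of features. Both calls share the libraries of 80 min, so a chance deviation of these libraries enters both calls with opposite signs.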
